A study of Mus musculus with 7 samples.

Results

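The F-box proteins and cullins are the parts of the largest class of ubiquitin ligases, and they were examined here in the left ventricle of mice that carry a titin missense allele. The genes were taken by name: every symbol that starts with Fbxo, Fbxw or Fbxl, the cullins Cul1, Cul2, Cul3, Cul4a, Cul4b, Cul5 and Cul7, the adaptor Skp1a and the RING protein Rbx1. The count table listed 85 such genes. Of these, 67 had at least 10 counts in at least 3 of the 7 libraries, and Fbxo30, Fbxo32 and Fbxo40 were set apart because they belong with the muscle atrophy ligases. This left 64 genes of 13894 tested, namely 9 of the 22 listed Fbxw genes, 18 Fbxl genes, 28 Fbxo genes, 7 cullins, Skp1a and Rbx1.

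A cullin is an elongated scaffold. Its C-terminal end holds Rbx1 (or the related Rnf7), which brings in a ubiquitin-charged conjugating enzyme, and its N-terminal end holds an adaptor with a substrate receptor. In the SCF ligases Cul1 is the scaffold, Skp1 the adaptor and an F-box protein the receptor, so that the F-box protein decides which protein is marked for the proteasome. Attachment of the ubiquitin-like protein Nedd8 switches a cullin on, the COP9 signalosome takes Nedd8 off again, and Cand proteins exchange the receptors. In heart and skeletal muscle these ligases are known for sarcomere protein turnover and for control of growth signals.

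The comparison was between 3 WT mice, numbered 1, 3 and 4, and 4 mice homozygous for titin A178D, numbered 1 to 4, all labelled as strain C57BL/6J. The labels give neither age nor sex of these animals. The allele is a single amino acid change in the Z-disc part of titin. It was made by gene editing in embryonic stem cells of the related C57BL/6N background, with a silent change beside it for genotyping, and the line was then backcrossed to C57BL/6J. The allele is present in every cell from conception, so that a difference between the genotypes need not be limited to cardiomyocytes or to adult life. Stretches of C57BL/6N sequence linked to Ttn can remain. The edit does not remove the transcript, and gene counts therefore do not check the genotype labels.

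Polyadenylated RNA was sequenced from both ends, 1 library per heart, and the authors deposited raw counts per gene. The WT libraries held 51797208, 54245530 and 41102868 counts and the A178D libraries 40623300, 52345529, 42174448 and 33080675, with A178D heart 4 the shallowest. Levels are given as CPM, counts relative to library size after TMM scaling, and differences as log2 fold changes of A178D over WT with the standard error from edgeR. A gene was called when its p, adjusted over all tested genes, was under 0.05. All 7 hearts carried the defining transcripts of ventricular cardiomyocytes, with 7 of 7 markers tested, none called by edgeR or DESeq2 (1 at an unadjusted p under 0.05), Myh6 the most abundant and a summed level of 90044, 96125 and 95654 CPM in the WT hearts and 90683, 90418, 88901 and 96865 CPM in the A178D hearts. Of 4 atrial markers, Sln, Myl7 and Bmp10 were at or near 0 and Myl4, the 1 tested, was not called by edgeR or DESeq2 (unadjusted p under 0.05). Myl4 was low, with 1.90, 1.89 and 1.85 CPM in the WT hearts and 4.01, 2.14, 2.60 and 3.06 CPM in the A178D hearts. All A178D hearts were above all WT hearts for it, with a log2 fold change of 0.65 (edgeR adjusted p = 0.171). Of 6 skeletal muscle markers, Myh1 and Myh4 were at or near 0, and of the 4 tested none was called by edgeR or DESeq2, with 0 at an unadjusted p under 0.05. Y-linked transcripts were present in every heart, with a sum over Ddx3y, Kdm5d, Uty and Eif2s3y between 167 and 264 CPM.

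None of the 64 genes was called in A178D against WT by edgeR, where 2.35% of all tested genes were called (327 of 13894, 145 higher and 182 lower). DESeq2 and limma-voom also called 0 of the 64. At an unadjusted p under 0.05 edgeR counted 7 of the 64 genes (10.9%), DESeq2 6 and limma-voom 7, against 16.7% of all tested genes in edgeR. The 7 genes were Fbxo10, Fbxl7, Fbxl17 and Fbxw10, which had lower values in A178D, and Fbxo44, Fbxo4 and Fbxo21, which had higher values. The lowest adjusted p among the 64 genes by edgeR was 0.112, for Fbxo10.

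Differences were small on the whole. The median log2 fold change was -0.0099, with 31 genes above 0 and 33 below, against 0.0023 over all tested genes. A further fit took the relation of counts to merged exon length and to GC content out of every library (here called trends removed). It put the median at 0.0027 and so turned its sign. By family, the median was 0.0068 for Fbxw genes, which turned to -0.012 with the trends removed. It was 0.016 for Fbxl genes (0.031 with the trends removed) and -0.016 for Fbxo genes (-0.036). The median size of the difference regardless of sign was 0.092, and it was 0.12 over all tested genes. For 48 of the 64 genes (75.0%) the 95% interval of the fold change lay within 1.5-fold in either direction, a share near the 73.3% of all tested genes. Among the 40 genes whose mean reached 500 counts, a line drawn after the values were seen, all 40 intervals lay within 1.5-fold, as did 8155 of the 8576 tested genes at that depth (95.1%). Of the 12 genes with a mean under 100 counts, 0 had an interval that narrow.

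**Figure D1:**
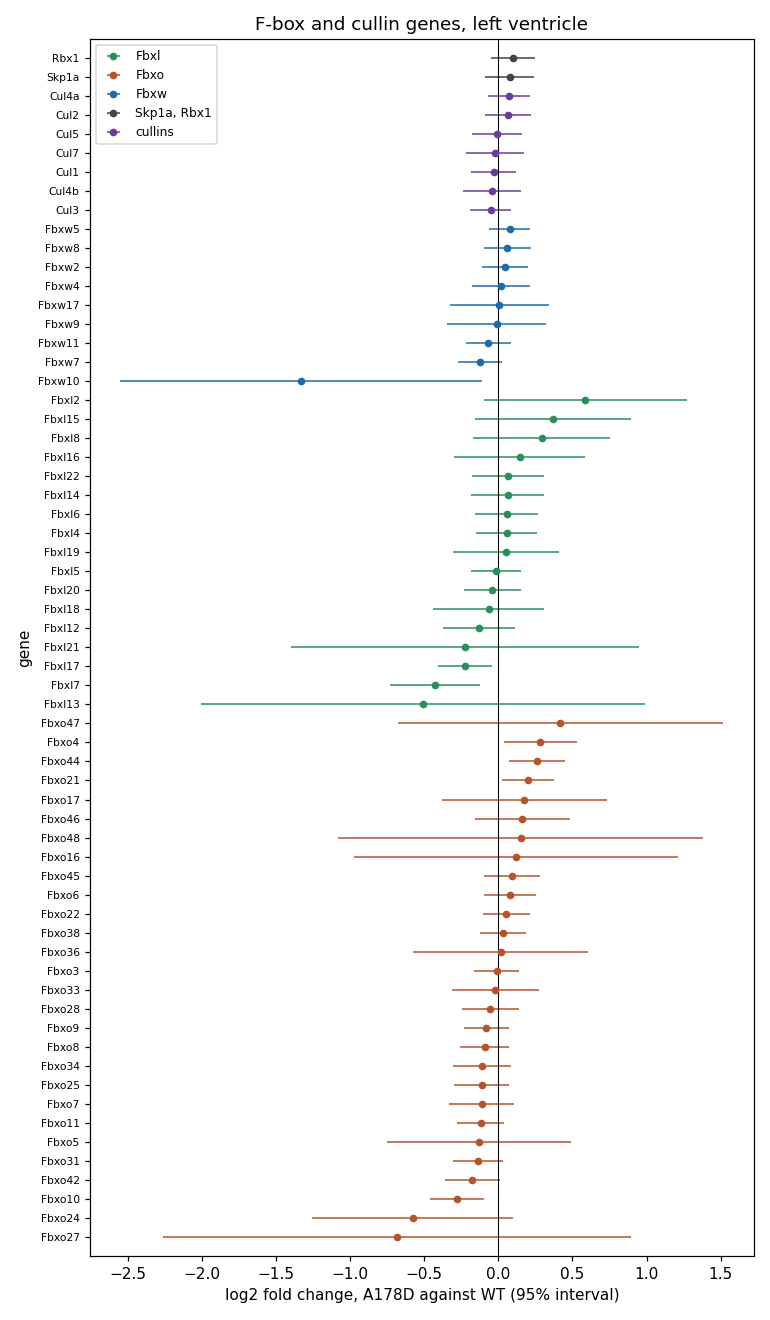
Log2 fold change of A178D over WT (horizontal axis) for 63 of the 64 genes (vertical axis, coloured by family), with points for the edgeR estimate and lines for the 95% interval. The 7 cullins lie between -0.051 and 0.069, and the widest intervals belong to genes with few counts, such as Fbxw10, Fbxl13 and Fbxo27.

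In 11 of the 64 genes (17.2%) the values of the hearts did not overlap between the genotypes, a share close to the 16.1% of all tested genes. The A178D hearts were all higher for Fbxo44, Fbxo4, Fbxo21, Fbxl2 and Fbxw5. Those in which they were all lower included Fbxo10, Fbxl7, Fbxl17, Fbxo24 and Fbxo34. RNA came from whole tissue, so that for any of these genes fewer cells of a type and less RNA per cell cannot be told apart.

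The common core of the SCF ligases was abundant, and its values overlapped between the genotypes. Skp1a, the adaptor between Cul1 and the F-box, lies at chr11:52231995-52246858 (GRCm38) and measured 169, 169.6 and 194 CPM in WT hearts 1, 3 and 4 and 204, 174, 188 and 183 CPM in A178D hearts 1 to 4. The ranges overlapped, with a log2 fold change of 0.076 ± 0.077 (SE, edgeR adjusted p = 0.661). Its log2 fold change was 0.015 in a fit with the relation of counts to length and GC content removed. With 1 heart left out it was 0.033 (without A178D heart 1) to 0.14 (without WT heart 4). Rbx1, the RING subunit of most cullin ligases, measured 61.0, 61.4 and 64.0 CPM in the WT hearts and 66.0, 65.4, 63.8 and 71.4 CPM in the A178D hearts. Its lowest A178D heart was below the highest WT heart, and A178D heart 4 was the highest of all. Rbx1 had a log2 fold change of 0.10 ± 0.070 (SE, edgeR adjusted p = 0.504), with a 95% interval of -0.048 to 0.25, and the estimate was 0.067 to 0.12 with 1 heart left out.

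All 7 cullins had log2 fold changes between -0.051 and 0.069, none had an unadjusted p under 0.05 and none separated the genotypes. Cul4a with Cul4b carries the Ddb1 adaptor and serves DNA repair and chromatin. Cul4a measured 149, 145 and 153 CPM in the WT hearts and 163, 158, 158 and 146 CPM in the A178D hearts, with a log2 fold change of 0.069 ± 0.066 (SE, edgeR adjusted p = 0.641). Cul4b, its X-linked relative, stood at 25.2 ± 1.68 CPM in WT (SD, n = 3) and 24.5 ± 2.07 CPM in A178D (SD, n = 4). Cul3, the scaffold of the BTB-domain receptors such as Keap1, measured 164, 154 and 164 CPM in the WT hearts and 153, 154, 161 and 151 CPM in the A178D hearts. Its 95% interval of -0.19 to 0.086 on the log2 scale was the narrowest of the 7 cullins.

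Cul1, the scaffold of the SCF ligases, measured 104, 98.6 and 113 CPM in the WT hearts and 105, 108, 100.1 and 98.0 CPM in the A178D hearts. The A178D values lay within the WT range except for heart 4, and the log2 fold change was -0.031 with a 95% interval of -0.18 to 0.12. Cul2, the scaffold of the von Hippel-Lindau ligase, stood at 59.3 ± 1.45 CPM in WT (SD, n = 3) and 62.0 ± 3.81 CPM in A178D (SD, n = 4), and its log2 fold change was 0.064 (0.028 to 0.094 with 1 heart left out). Cul5, which serves SOCS-box receptors and pairs with Rnf7, stood at 77.2 ± 5.33 CPM in WT (SD, n = 3) and 76.7 ± 5.49 CPM in A178D (SD, n = 4). Cul7, which works with Fbxw8, stood at 39.3 ± 2.96 CPM in WT (SD, n = 3) and 38.8 ± 3.82 CPM in A178D (SD, n = 4). The log2 fold changes of Cul5 and Cul7 were -0.0089 and -0.022, and both turned positive with the length and GC trends removed (0.065 and 0.022). The cullin median of -0.022 likewise became 0.022 in that fit.

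To compare levels between genes, CPM was divided by the length in kilobases of the longest principal transcript of each gene in GENCODE M21. On this scale the 64 genes spanned 0.0876 CPM per kilobase (Fbxw10) to 104 CPM per kilobase (Skp1a), with a median of 6.23. Skp1a stood clear of all others, and every heart had more of it than any heart had of Fbxw5, next in the order at 43.7 CPM per kilobase. Fbxw5, Cul4a (41.1) and Rbx1 (38.6) followed each other with overlapping ranges over the 7 hearts, and after a gap came Cul3 (33.4), Cul1 (32.8) and Fbxw7 (32.0). In 59 of the 63 pairs of neighbours in this order the ranges over the hearts overlapped, so that most places in it are not distinguished from the next. Levels per kilobase depend on the transcript taken: with all exons merged, Cul4a stood at 23.9, Fbxw7 at 10.1, Fbxw2 at 5.55 and Rbx1 at 14.2 CPM per kilobase.

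**Figure D2:**
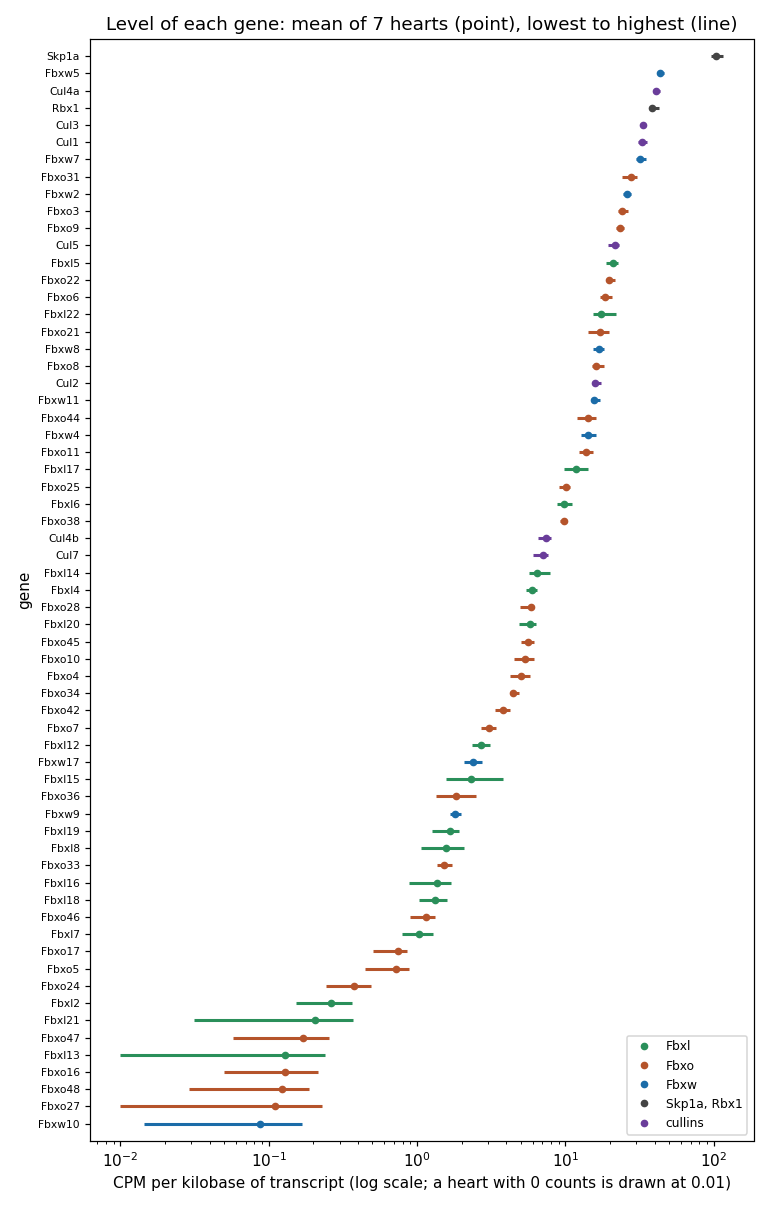
Level of 63 of the 64 genes in CPM per kilobase of transcript (horizontal axis, log scale), with points for the mean of the 7 hearts and lines from the lowest to the highest heart, and hearts with 0 counts drawn at 0.01. Skp1a leads at 104 CPM per kilobase, and 11 genes lie below 1 CPM per kilobase.

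The Fbxw receptors, which bind substrates through WD40 repeats, had the highest median level of the F-box families (15.7 CPM per kilobase over 9 genes, against 5.20 for 28 Fbxo and 2.51 for 18 Fbxl genes). This order holds only among tested genes. Of the 22 listed Fbxw genes 13 fell under the count limit, while all listed Fbxl genes passed it, so that over all listed genes the Fbxw median would be near 0 and the lowest of the families. Fbxw5 measured 102, 102 and 99.2 CPM in the WT hearts and 105, 102, 109 and 110.4 CPM in the A178D hearts. The genotypes did not overlap, but the gap was small, with a log2 fold change of 0.078 ± 0.064 (SE, edgeR adjusted p = 0.578). Fbxw7, the receptor for cyclin E, Myc and Notch, measured 71.1, 75.3 and 77.5 CPM in the WT hearts and 69.0, 66.7, 71.9 and 66.3 CPM in the A178D hearts. One A178D heart, number 3, was above WT heart 1 and the other 3 were below all WT hearts, and Fbxw7 had a log2 fold change of -0.12 ± 0.068 (SE, edgeR adjusted p = 0.391). Fbxw2 stood at 51.8 ± 0.594 CPM in WT (SD, n = 3) and 53.5 ± 2.90 CPM in A178D (SD, n = 4), and its log2 fold change was 0.045, which the fit with the trends removed put at 0.13, while that of Fbxw5 became 0.040. With 1 heart left out that of Fbxw2 was 0.018 to 0.084.

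Fbxw8, the F-box partner of Cul7, had a log2 fold change of 0.062 with a 95% interval of -0.10 to 0.22, and 0.024 to 0.12 with 1 heart left out. Fbxw11, one of the pair of receptors that recognise phosphorylated beta-catenin and IkB, measured 68.8, 64.6 and 61.1 CPM in the WT hearts and 62.2, 62.0, 63.8 and 59.4 CPM in the A178D hearts. The ranges overlapped, with an estimate of -0.067 on the log2 scale that was -0.020 without WT heart 1. Fbxw10 had the estimate farthest from 0 of all 64 genes but rested on very few counts. The libraries held 24, 30 and 12 counts of it in the WT hearts and 4, 13, 2 and 10 counts in the A178D hearts. The highest A178D heart, number 4 by CPM, was above WT heart 4, and Fbxw10 had a log2 fold change of -1.33 ± 0.57 (SE, edgeR adjusted p = 0.261) with a 95% interval of -2.55 to -0.11. Part of its exons (5.89%) also belongs to Trim16 on the same strand, and the number of reads of each gene in that stretch cannot be told apart.

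The Fbxl receptors bind through leucine-rich repeats. Fbxl7, a receptor for Aurora kinase A, had the lowest log2 fold change where the mean was 50 counts or more. It measured 5.90, 5.58 and 5.32 CPM in the WT hearts and 4.63, 3.64, 4.36 and 4.08 CPM in the A178D hearts. All 4 A178D hearts were below all 3 WT hearts, with a log2 fold change of -0.42 ± 0.14 (SE, edgeR adjusted p = 0.146) and a 95% interval of -0.73 to -0.12. Fbxl17, which removes wrongly paired BTB-domain proteins, measured 69.7, 59.9 and 60.8 CPM in the WT hearts and 52.6, 57.2, 58.8 and 48.4 CPM in the A178D hearts. WT heart 1 was the highest and A178D heart 4 the lowest, and the genotypes did not overlap. The gene had a log2 fold change of -0.23 ± 0.086 (SE, edgeR adjusted p = 0.204), and without WT heart 1 the estimate was -0.15.

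Fbxl21 is a receptor for the clock repressors Cry1 and Cry2. It was near the limit of detection, with 25, 28 and 14 counts in the WT hearts and 14, 19, 31 and 2 in the A178D hearts, and a 95% interval of -1.40 to 0.95 on the log2 scale. Among 14 clock genes tested, 1 was called higher in A178D (Arntl, log2 fold change 1.77) and 4 were called lower (Per2, -0.88; Cry1, -0.51; Per3, -0.47; and Tef, -0.39). All 5 calls were lost by edgeR without WT heart 3, and those of Arntl, Cry1, Per3 and Tef also without WT heart 4. Without A178D heart 1 those of Cry1, Per3 and Tef were lost, and without A178D heart 3 that of Cry1. The highest edgeR adjusted p with 1 heart left out was 0.187 for Cry1, 0.0937 for Per3, 0.0890 for Tef, 0.0823 for Arntl and 0.0525 for Per2, and each kept its direction. Nr1d1 (log2 fold change 0.51), Nr1d2 (-0.29) and Clock (0.25) were not called by edgeR with all hearts but were called in other fits. Their lowest edgeR adjusted p with 1 heart left out was 0.000207, 0.0330 and 0.0452. By edgeR Nr1d1 was also called with replicate number as a block (adjusted p = 0.0175) and Nr1d2 with the trends removed (0.0312). The summed level of the 14 clock genes was 1239, 1239 and 1262 CPM in the WT hearts and 1001, 1104, 1184 and 1139 CPM in the A178D hearts, with Tef the most abundant. The hour at which each heart was taken is not in the labels, and the part of these differences in the values of the F-box genes was not tested.

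Fbxl5, the iron-sensing receptor for the iron regulatory proteins, was the most abundant Fbxl gene per kilobase (20.8), but not with all exons merged (6.10, against 17.3 for Fbxl22). It measured 58.8, 55.9 and 64.8 CPM in the WT hearts and 62.4, 59.7, 60.3 and 53.9 CPM in the A178D hearts, and its log2 fold change of -0.018 became 0.064 with the length and GC trends removed. Fbxl22 is a receptor of the cardiac Z-disc, the structure in which titin is anchored. It measured 74.0, 64.9 and 60.0 CPM in the WT hearts and 62.3, 66.0, 62.8 and 86.8 CPM in the A178D hearts. A178D heart 4 stood above the other 6 hearts, which shared a range, and the log2 fold change was 0.067 with it and -0.057 without it. Of the exons of Fbxl22, 8.06% overlap Herc1 on the other strand.

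Fbxl4, which restrains mitophagy, had a log2 fold change of 0.056 (0.030 to 0.11 with 1 heart left out), and Fbxl20, known from synapses, of -0.041 (0.037 with the trends removed). Fbxl15, a receptor for the ligase Smurf1, and Fbxl8 had the largest estimates above 0 among Fbxl genes whose mean reached 50 counts. Fbxl15 measured 3.06, 2.11 and 2.83 CPM in the WT hearts and 2.35, 3.28, 3.12 and 5.10 CPM in the A178D hearts. The estimate of 0.37 was 0.14 without A178D heart 4, the highest, and 25.6% of its exons overlap Cuedc2 on the other strand. Fbxl8 stood at 2.64 ± 0.527 CPM in WT (SD, n = 3) and 3.24 ± 0.676 CPM in A178D (SD, n = 4), with a log2 fold change of 0.29 that was 0.13 without WT heart 3.

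The Fbxo receptors carry various other domains. Fbxo10, a receptor for the survival protein Bcl2, had the lowest p of the 64 genes. It lies at chr4:45034247-45084604 (GRCm38) and measured 28.4, 27.1 and 27.6 CPM in the WT hearts and 21.0, 25.2, 22.6 and 22.6 CPM in the A178D hearts. The WT hearts were tightly grouped, and every A178D heart was below them. Fbxo10 had a log2 fold change of -0.28 ± 0.085 (SE, edgeR adjusted p = 0.112) and a 95% interval of -0.46 to -0.10.

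Fbxo44, Fbxo6 and Fbxo2 are neighbours on chromosome 4 and share the domain by which Fbxo6 and Fbxo2 hold sugar-bearing proteins that leave the endoplasmic reticulum. Fbxo44, at chr4:148152800-148160482, measured 21.7, 26.0 and 22.0 CPM in the WT hearts and 27.7, 27.7, 26.7 and 29.4 CPM in the A178D hearts. WT heart 3 came near the A178D hearts and the genotypes did not overlap. Fbxo44 had a log2 fold change of 0.26 ± 0.089 (SE, edgeR adjusted p = 0.159) and a 95% interval of 0.069 to 0.45. Fbxo6 lies less than 1 kilobase away, at chr4:148145716-148152140. It measured 33.3, 36.8 and 34.5 CPM in the WT hearts and 36.8, 33.7, 36.8 and 40.0 CPM in the A178D hearts. The ranges overlapped, with a log2 fold change of 0.077 (0.011 with the trends removed and 0.036 to 0.12 with 1 heart left out). Fbxo2, at chr4:148160621-148166424 and known from neurons, had 32 counts over the 7 libraries and was not tested.

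Fbxo4, a receptor for cyclin D1 that works with alphaB-crystallin, measured 6.77, 6.60 and 7.63 CPM in the WT hearts and 8.70, 7.95, 8.41 and 9.02 CPM in the A178D hearts. All A178D hearts were above the WT hearts, with a log2 fold change of 0.28 ± 0.11 (SE, edgeR adjusted p = 0.235). Fbxo21 measured 64.0, 56.5 and 67.4 CPM in the WT hearts and 68.0, 78.0, 73.2 and 68.1 CPM in the A178D hearts. WT heart 4 came within 1 CPM of A178D heart 1, and Fbxo21 had a log2 fold change of 0.20 ± 0.082 (SE, edgeR adjusted p = 0.243). Without WT heart 3, the lowest, the estimate was 0.13.

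**Figure D3:**
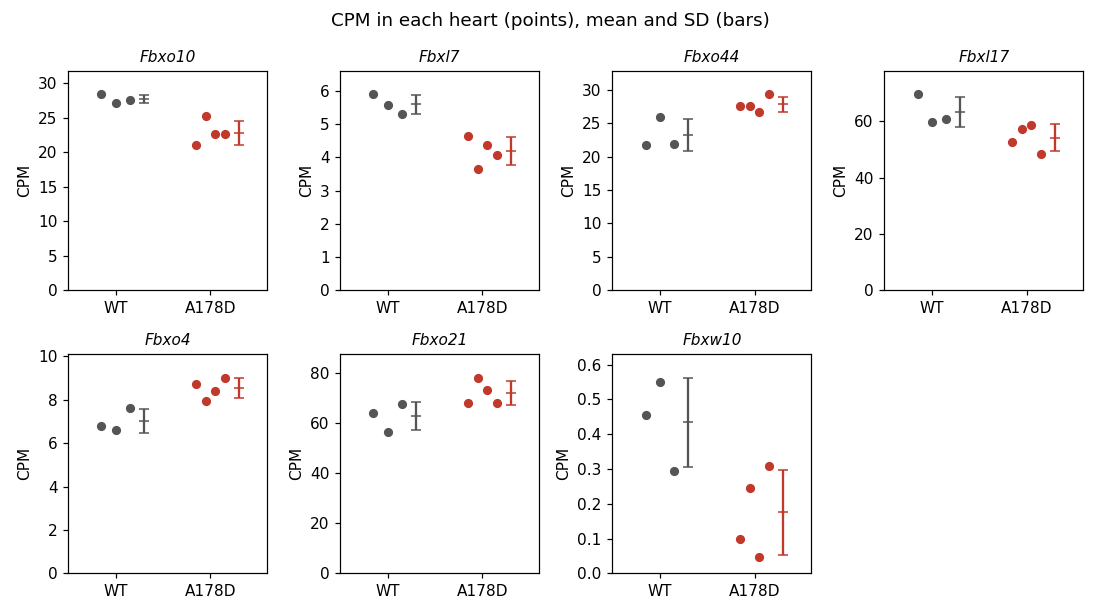
CPM (vertical axes, from 0) in each of 3 WT and 4 A178D hearts for the 7 genes with an unadjusted p under 0.05, with points for hearts and bars for the mean and SD. The genotypes do not overlap for Fbxo10, Fbxl7, Fbxo44, Fbxl17, Fbxo4 and Fbxo21, and they overlap for Fbxw10.

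The most abundant Fbxo genes per kilobase were Fbxo31 (27.8), Fbxo3 (24.1) and Fbxo9 (23.3). With all exons merged Fbxo31 still led (22.1), followed by Fbxo22 (17.4) and Fbxo6 (16.3), with Fbxo3 at 15.8 and Fbxo9 at 13.9. Fbxo31, a receptor for cyclin D1 after DNA damage, measured 125, 128 and 130.3 CPM in the WT hearts and 114, 113, 105 and 133 CPM in the A178D hearts. A178D hearts 1 to 3 were below the WT hearts and heart 4 was above them, with a log2 fold change of -0.14 ± 0.079 (SE, edgeR adjusted p = 0.422). Without heart 4 the estimate was -0.21, with an edgeR adjusted p of 0.0990. Fbxo3 stood at 115 ± 8.83 CPM in WT (SD, n = 3) and 114 ± 3.82 CPM in A178D (SD, n = 4), and Fbxo9 at 44.5 ± 2.32 CPM in WT (SD, n = 3) and 42.1 ± 0.864 CPM in A178D (SD, n = 4). Their log2 fold changes were -0.012 and -0.080 (-0.056 to 0.051 and -0.12 to -0.056 with 1 heart left out), and that of Fbxo3 was 0.037 with the trends removed.

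Fbxo11, a receptor for Bcl6, stood at 53.7 ± 3.03 CPM in WT (SD, n = 3) and 49.5 ± 2.54 CPM in A178D (SD, n = 4), with a log2 fold change of -0.12 (-0.15 to -0.067 with 1 heart left out). Fbxo25, a receptor for cardiac transcription factors such as Nkx2-5, measured 20.5, 20.9 and 21.7 CPM in the WT hearts and 18.2, 19.0, 19.7 and 21.0 CPM in the A178D hearts. Its ranges overlapped, and its log2 fold change was -0.11 with a 95% interval of -0.30 to 0.074. Fbxo7, known from mitophagy and a form of parkinsonism, had a log2 fold change of -0.11 (-0.18 to -0.057 with 1 heart left out). Fbxo5, better known as Emi1, holds back the anaphase-promoting complex in dividing cells and stood at only 1.46 ± 0.329 CPM in WT (SD, n = 3) and 1.34 ± 0.364 CPM in A178D (SD, n = 4). The 5 markers of dividing cells were low as well, with a summed level of 15.9, 17.4 and 17.3 CPM in the WT hearts and 17.9, 29.6, 15.1 and 20.8 CPM in the A178D hearts, led by Mki67, and none of the 5 was called by edgeR or DESeq2, with 1 at an unadjusted p under 0.05.

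Of the 18 genes that did not reach 10 counts in 3 libraries, 5 were Fbxo genes (Fbxo2, Fbxo15, Fbxo39, Fbxo41 and Fbxo43) and 13 were Fbxw genes. The 13 Fbxw genes (Fbxw13 to Fbxw16, Fbxw18 to Fbxw22, Fbxw24 and Fbxw26 to Fbxw28) lie side by side on chromosome 9, between positions 109139447 and 109790670 (GRCm38), a stretch of 0.651 Mb. No gene of this cluster had more than 4 counts over all 7 libraries, and 9 of the 13 had 0. A count of 0 allows up to 3 counts, which is 0.0550 CPM in the deepest library (WT heart 3) and 0.0926 CPM in the shallowest (A178D heart 4), for counting error only, or about 2 times that where each end of a fragment was counted. The genes of the cluster resemble each other, and reads that fit several of them may not have been counted. Just inside the limit were Fbxo27, with 10 counts or more in 4 libraries, and Fbxo48, Fbxw10, Fbxl13 and Fbxo47, with 10 or more in 5. Just outside was Fbxo2, with 10 in 1.

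The promoters of the core genes Skp1a (Skp1 in RefSeq) and Rbx1 are shown beside that of Fbxw15, the gene of the chromosome 9 cluster with the most counts. Per kilobase of principal transcript, Skp1a had rank 1 and Rbx1 rank 4 among the 64 genes. With all exons merged the ranks were 1 and 15. RefSeq promoters (GRCm38.p6, 300 bases around the start) were found for 50 of the 64 genes, too few (78.1%) for a summary over the genes. They are printed 5′ to 3′ on the strand of the gene, with every CG in capitals.
Skp1: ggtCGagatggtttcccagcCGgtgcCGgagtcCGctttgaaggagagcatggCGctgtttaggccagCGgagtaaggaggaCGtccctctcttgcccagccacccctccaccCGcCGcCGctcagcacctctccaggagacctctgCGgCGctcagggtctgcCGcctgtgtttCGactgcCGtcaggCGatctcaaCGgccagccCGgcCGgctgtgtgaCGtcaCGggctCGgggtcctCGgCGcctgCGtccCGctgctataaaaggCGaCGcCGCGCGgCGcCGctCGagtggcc
Rbx1: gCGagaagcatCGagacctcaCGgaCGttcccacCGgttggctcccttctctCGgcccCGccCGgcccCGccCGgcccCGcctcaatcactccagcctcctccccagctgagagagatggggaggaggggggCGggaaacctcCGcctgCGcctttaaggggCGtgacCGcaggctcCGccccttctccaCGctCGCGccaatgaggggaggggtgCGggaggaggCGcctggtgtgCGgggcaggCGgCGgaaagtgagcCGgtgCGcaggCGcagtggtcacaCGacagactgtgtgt
Fbxw15: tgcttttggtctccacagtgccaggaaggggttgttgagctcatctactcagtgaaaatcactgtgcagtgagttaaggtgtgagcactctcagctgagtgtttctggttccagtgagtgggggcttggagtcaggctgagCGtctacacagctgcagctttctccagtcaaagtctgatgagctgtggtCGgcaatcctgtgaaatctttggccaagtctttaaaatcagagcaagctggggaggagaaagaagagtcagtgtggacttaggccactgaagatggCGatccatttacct
The Skp1 promoter, at chr11:52231745-52232044 on the plus strand, holds 34 CG, and 92.3% of the 32851 promoters in the table hold fewer. That of Rbx1, at chr15:81466066-81466365 on the plus strand, holds 29, and 87.1% hold fewer. The promoter of Fbxw15, at chr9:109568213-109568512 on the minus strand, holds 3, and 23.3% hold fewer. CG reads the same on both strands. These are counts of letters and say nothing of methylation or of any factor.

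The other Fbxl and Fbxo genes had log2 fold changes from -0.68 (Fbxo27) to 0.59 (Fbxl2), both with few counts, and that of Fbxo27 was -1.14 to -0.25 with 1 heart left out. Fbxl2 stood at 0.701 ± 0.207 CPM in WT (SD, n = 3) and 1.06 ± 0.144 CPM in A178D (SD, n = 4). Fbxo24, which shares 4.46% of its exons with Pcolce on the same strand, measured 1.05, 0.917 and 1.06 CPM in the WT hearts and 0.867, 0.569, 0.726 and 0.525 CPM in the A178D hearts. Neither pair of ranges overlapped, and neither gene had an unadjusted p under 0.05. Fbxo34 stood at 13.6 ± 0.590 CPM in WT (SD, n = 3) and 12.6 ± 0.220 CPM in A178D (SD, n = 4), with a log2 fold change of -0.11 (-0.13 to -0.071 with 1 heart left out). In 13 of the 64 genes some exon sequence is shared with another gene, most of all in Fbxl12 (37.1% with Ubl5), Fbxl15, Fbxw4 (21.4% with Gm17018), Fbxo22 (15.4% with Nrg4) and Fbxl2 (11.2% with Ubp1), all on opposite strands. The libraries mark the strand, but the strand setting of the counting is not given in the sources used here. Ttn lies on chromosome 2, as do Fbxo3, Fbxw2 and Fbxw5, at distances of 27.2, 42.0 and 51.3 Mb from it.

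The genes that switch and serve the cullins were taken from a list of 58 names, of which 57 were tested and Ect2l had too few counts. By edgeR none of the 57 was called and 4 had an unadjusted p under 0.05 (7.02%, against 16.7% of all tested genes), DESeq2 called 1 (Cdc34), and limma-voom 0. The median log2 fold change was 0.037, with 43 genes above 0 and 14 below, where 50.5% of all tested genes were above 0. The mean over the 57 genes had an SD of 0.024 on the log2 scale between hearts of a genotype. Genes that move together between hearts are not independent in such counts. The group of 13 neddylation genes had 12 above 0, the COP9 signalosome 9 of 10, and the ubiquitin transfer enzymes 7 of 8, while the other groups had 2 of 3 (exchange factors), 9 of 16 (other cullins and adaptors) and 4 of 7 (6 F-box proteins under other names together with Cks1b, the cofactor of Skp2). These tallies depend in part on the trends: with the trends removed 40 of the 57 genes were above 0, with 7 of the 10 signalosome genes (Cops4, Gps1 and Cops7a were below 0) and 11 of the 13 neddylation genes. The genotypes did not overlap in 7 of the 57 genes (12.3%, against 16.1% of all tested genes).

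Cdc34, the conjugating enzyme that builds ubiquitin chains on SCF substrates, had the lowest p of these genes. It measured 133, 126 and 132 CPM in the WT hearts and 162, 147, 143 and 175 CPM in the A178D hearts. All A178D hearts were above all WT hearts, with a log2 fold change of 0.27 ± 0.078 (SE, edgeR adjusted p = 0.1), while DESeq2 gave an adjusted p of 0.0328 in a range of 0.0328 to 0.302 over the alternatives. With the length and GC trends removed the log2 fold change was 0.20. Ube2f, which passes Nedd8 to Cul5, measured 36.6, 36.1 and 37.7 CPM in the WT hearts and 47.0, 38.8, 42.4 and 50 CPM in the A178D hearts. The genotypes did not overlap, and Ube2f had a log2 fold change of 0.27 ± 0.090 (SE, edgeR adjusted p = 0.141). Senp8, the protease that matures Nedd8, measured 10.4, 9.61 and 9.20 CPM in the WT hearts and 8.92, 8.61, 7.92 and 7.10 CPM in the A178D hearts, all below WT, with a log2 fold change of -0.26 ± 0.12 (SE, edgeR adjusted p = 0.283). Cops9, a small subunit of the COP9 signalosome, measured 37.5, 47.1 and 46.4 CPM in the WT hearts and 51.9, 46.8, 46.5 and 57.9 CPM in the A178D hearts. Its WT heart 1 was the lowest of all, and the estimate of 0.22 was 0.12 without it.

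Nedd8 itself measured 19.1, 23.5 and 23.8 CPM in the WT hearts and 23.4, 23.1, 21.7 and 26.8 CPM in the A178D hearts, and its log2 fold change of 0.10 became -0.010 with the trends removed and 0.0070 without WT heart 1. Cops5, the subunit that cuts Nedd8 from cullins, had a log2 fold change of 0.10 with a 95% interval of -0.077 to 0.28, and 0.055 to 0.15 with 1 heart left out. Of the exchange factors, the muscle form Cand2 (41.2 CPM per kilobase) was above Cand1 (5.59) in every heart, and their log2 fold changes were 0.059 and -0.066 (0.073 and -0.0082 with the trends removed, and 0.021 to 0.13 and -0.14 to -0.0025 with 1 heart left out). Btrc, the relative of Fbxw11, had a log2 fold change of 0.037, and of 0.18 with the trends removed. Skp2, the receptor for p27 in dividing cells, stood at 1.41 ± 0.390 CPM in WT (SD, n = 3) and 1.6 ± 0.185 CPM in A178D (SD, n = 4).

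The F-box genes set apart were not called by edgeR either. Fbxo32 (atrogin-1), the receptor induced in muscle wasting, measured 226, 282 and 283 CPM in the WT hearts and 248, 268, 255 and 219.7 CPM in the A178D hearts, which overlap. Its log2 fold change was -0.091, and -0.19 (without WT heart 1) to -0.038 (without A178D heart 4) with 1 heart left out. Fbxo40, a striated muscle receptor for Irs1, stood at 161 ± 14.0 CPM in WT (SD, n = 3) and 167 ± 27.1 CPM in A178D (SD, n = 4), and Fbxo30 at 29.7 ± 1.35 CPM in WT (SD, n = 3) and 28.4 ± 3.33 CPM in A178D (SD, n = 4). Ttn, the edited gene, measured 7245, 6247 and 6486 CPM in the WT hearts and 5360.5, 6173, 6489.5 and 4087 CPM in the A178D hearts. It had a log2 fold change of -0.27 ± 0.12 (SE, edgeR adjusted p = 0.287) that was -0.082 with the trends removed. With 1 heart left out the Ttn estimate was -0.35 (without A178D heart 3) to -0.15 (without A178D heart 4, the lowest). The log2 fold changes of Tcap, which encodes the titin-capping protein telethonin, and of Fhl2, a LIM protein bound to titin, were 0.13 and 0.088. With the trends removed they were 0.012 and 0.010. That of Tcap was 0.067 (without A178D heart 4) to 0.18 with 1 heart left out, and that of Fhl2 was -0.0095 without WT heart 1.

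Some markers of other cell types differed between the genotypes. Of 6 smooth muscle and pericyte markers, 4 were called lower in A178D (Myh11, Acta2, Tagln and Cnn1) and none higher, and their summed level was 619, 619 and 595 CPM in the WT hearts and 389, 448, 466 and 423 CPM in the A178D hearts, with Acta2 the most abundant. With 1 heart left out the calls of Acta2 and Tagln held in every fit, that of Myh11 was lost in 2 (highest edgeR adjusted p 0.0547) and that of Cnn1 in 6 (0.109), and Cnn1 also lost its call with replicate number as a block (edgeR adjusted p = 0.0617). Of 5 fibroblast markers, 1 was called higher (Col3a1, log2 fold change 0.62), and the summed level was 923, 955 and 879 CPM in the WT hearts and 1122, 1061, 1018 and 1027 CPM in the A178D hearts, led by Dcn. Col3a1 lost its call in 4 of the fits with 1 heart left out (highest edgeR adjusted p 0.113). Col1a1 had a log2 fold change of 0.45, which was 0.27 without WT heart 4. By edgeR it was not called with all hearts (adjusted p = 0.0813) but was called without a filter on low counts, with the trends removed (0.0239) and without WT heart 1 (0.0196), and DESeq2 called it (0.0120). The log2 fold changes of Dcn (0.0026), Tcf21 (0.043) and Pdgfra (-0.060) were near 0, so that the list had a median of 0.043. The summed levels of both lists did not overlap between the genotypes. By edgeR and DESeq2 with all hearts no marker was called for endothelium (5 tested), macrophages (5), lymphocytes (4), erythrocytes (3) or adipocytes (4). At an unadjusted p under 0.05 there were 3, all in macrophages (Adgre1, 0.33, and C1qa, 0.29, above 0 and Cd163, -0.32, below). With 1 heart left out the log2 fold change was 0.16 to 0.47 for C1qa and -0.49 to -0.16 for Cd163. Cd163 was then called by edgeR in at least 1 fit (lowest adjusted p 0.0409). DESeq2 called 5 of the smooth muscle and pericyte markers, 2 of the fibroblast markers and 6 of the clock genes. The part of these cell types in the values of the F-box and cullin genes was not tested.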

How the data were processed

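RNA-seq counts of 3 WT and 4 A178D hearts were compared. Per the labels, libraries were stranded and poly(A)-selected, and the submitters' processing notes list bcl2fastq 2.18.0.12, HISAT2 2.1.0, SAMtools 1.6, DESeq2 1.26.0 and build GRCm38, while the counting program is not given in the sources used here. The authors deposited raw counts per gene, and a signal table of counts over a size factor, read only to check this. Low counts were mostly even (17.6 to 20.3% odd from 1 to 20), so that most fragments appear to be counted once for each end. Names and lengths came from GENCODE M21, and 268 of 21257 entries had no name. From sets of entries with identical counts and a total of at least 30, 1 each was kept (223 dropped), and 107 entries without counts that repeated an identifier were dropped, which left 20927. Genes were tested in edgeR 4.0.16 (R 4.3.3) with TMM, glmQLFit and glmQLFTest, keeping genes that reached 10 counts in 3 or more libraries, and p-values were adjusted by Benjamini-Hochberg (0.05). Standard errors were the log2 fold change over the root of F. The replicates are separate animals. Alternatives were DESeq2 1.42.0, its size factors in edgeR, limma-voom 3.58.1, other count filters, the table as deposited, halved counts, offsets for length and GC content (mgcv 1.9.3, basis size 6), the replicate block, each library left out, and adjusted p under 0.01. The edgeR fit, the edgeR fit with offsets, DESeq2 and limma-voom were tested on simulated counts that held no length or GC trend. Genes were named by rule: every cullin, Skp1a and Rbx1, genes with an unadjusted p under 0.05, the 3 most abundant of each F-box family, the 3 highest and lowest fold changes at a mean of at least 50 counts, and genes of well-known role, while others are given for separation of the genotypes or position and were chosen after their values were seen. The members and lists were chosen with earlier results of these data known. Counts and medians cover all 64 genes, but the values of 1 of them are not reported here.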

Additional observations from a re-analysis of the deposited data

Results flagged for a closer look

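Among the 64 genes and the named regulators, 74 groups of 4 A178D hearts were examined for a heart far from the others, and chance would give about 1 in 20. There were 3. Fbxl22 was at 86.8 CPM in A178D heart 4, where the other A178D hearts lay between 62.3 and 66.0 CPM and the WT hearts between 60.0 and 74.0 CPM. Fbxo28 was at 24.3 CPM in A178D heart 4, below the other A178D hearts (29.2 to 30.2 CPM) and the WT hearts (29.0 to 30.2 CPM). Fbxo8 was at 59.3 CPM in A178D heart 1, above the other A178D hearts (54.1 to 54.5 CPM) and within the WT range of 56.0 to 65.2 CPM. A178D heart 4 was the shallowest library and had the strongest trend with merged exon length. The part of this in its 2 values was not tested.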

How the results depend on the processing

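None of the 64 genes was called by edgeR, by any of 16 other fits (DESeq2 and limma-voom included) or at adjusted p under 0.01, and 4 (without WT heart 3) to 8 had an unadjusted p under 0.05 with 1 library left out. Over all genes edgeR called 327, DESeq2 665, and edgeR 64 at adjusted p under 0.01. With 1 library left out it called 53 (without WT heart 3) to 453 (without WT heart 1). Of the regulators DESeq2 called 1 (Cdc34). The median log2 fold change of the 64 genes, -0.0099, was -0.00084 with at least 10 counts in every library, 0.0027 with the length and GC trends removed, and -0.019 to 0.0092 with 1 library left out, and the cause was not tested. Deviations of hearts with the same replicate number had correlations across genes of 0.0031, -0.040 and -0.042. Pairs with different numbers had -0.070 to 0.066. Whether hearts with the same number share more than the number was not tested. With the replicate block 271 genes were called, 5 of the 64 had an unadjusted p under 0.05 and their median was -0.019.

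Of 846 values for 53 named genes over the alternatives, 819 kept their direction and side of the threshold, 1 passed it (Cdc34 by DESeq2) and 26 turned direction, in 15 genes, and the cause was not tested. With the length and GC trends removed, the log2 fold change was 0.065 for Cul5, 0.022 for Cul7, 0.037 for Fbxl20, 0.064 for Fbxl5, 0.037 for Fbxo3 and -0.010 for Nedd8. With 1 library left out it ranged from -0.0011 to 0.077 for Btrc, -0.075 to 0.022 for Cul1, -0.091 to 0.0099 for Cul4b, -0.062 to 0.039 for Cul5, -0.074 to 0.043 for Cul7, -0.10 to 0.023 for Fbxl20, -0.73 to 0.087 for Fbxl21, -0.057 to 0.16 for Fbxl22, -0.064 to 0.043 for Fbxl5, -0.056 to 0.051 for Fbxo3, -0.11 to 0.012 for Fbxo30, -0.042 to 0.13 for Fbxo40, -0.30 to 0.031 for Fbxo5 and -0.0095 to 0.16 for Fhl2. Levels over merged exons were added after the data were seen. Depth limits the 12 genes with a mean under 100 counts, whose median standard error was 0.51 on the log2 scale.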
